A study of Mus musculus with 2 samples.

Results

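The genes that encode the translation initiation factors (eIFs) and elongation factors (eEFs) of the mouse were examined for binding by Ago2, the Argonaute protein that microRNAs guide to messenger RNA. They were taken from the table of predicted microRNA sites by symbol (Eif or Eef followed by a digit), leaving out the Argonaute genes Eif2c2 and Eif2c3 and the eIF2 kinase genes Eif2ak1 to Eif2ak4. This gave 60 of the 15271 genes of that table, among them 3 pseudogenes (Eif3s6-ps1, Eif4a-ps4 and Eif5al3-ps). The assay was iCLIP: ultraviolet light ties proteins to the RNA they touch in living cells, and the fragments held by a chosen protein are purified and sequenced. Mouse embryonic stem cells of the line TT-FHAgo2 expressed FLAG-HA-tagged human Ago2, and cells of the line TT-Ago2 expressed the same protein without a tag as control. Each line is a clone in which human Ago2, under doxycycline control, was the only Argonaute family member. Cells grew in doxycycline at 0.1 µg/mL and were induced at 2.5 µg/mL for 24 h in both groups. Each group had 1 library, which leaves the replicate error unknown and allows no test between conditions.

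Translation starts when the cap-binding complex eIF4F (eIF4E, eIF4G and the helicase eIF4A) brings an mRNA to a small ribosomal subunit that carries eIF3 and the initiator tRNA, which is delivered by eIF2. eIF1 and eIF1A help the subunit scan for the start codon, eIF5 and eIF5B complete the joining of the large subunit, and eEF1 and eEF2 then drive elongation. The eIF4E-binding proteins block eIF4F assembly, and Argonaute complexes are known to repress their targets partly through the same cap-dependent machinery.

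MicroRNAs recognise targets mainly by pairing of their seed, bases 2 to 8, to a complementary match in the mRNA. The deposited site table lists matches to 50 microRNA seeds as 6mers, 7mers and 8mers, and further 8mers that do not begin with a listed 7mer, used here as control. The control 8mers are not free of microRNA matches. Those that overlap a listed site were left out of the control shares, but are named where they lie under a cluster. The stretches below lay under Ago2 clusters of Eif2s2, Eif2b2, Eif4g2, Eif4h, Eif5a2, Eef2 and Eef1b2, and are shown first because most listed 7mers and 8mers under clusters of the factor genes lie in them. The Eef1b2 stretch holds a listed 6mer only. Capitals mark the letters that belong to a listed seed match, and small letters were listed only as part of a control 8mer.
Eif2s2 3' UTR: AGCACTTA
Eif2b2 3' UTR, upstream match: TGCTGCTA
Eif2b2 3' UTR, central match: AGCCTGAGCCctca
Eif4g2 3' UTR, upstream match: GCACTTT
Eif4g2 3' UTR, downstream match: TACTTGA
Eif4h 3' UTR, downstream cluster: GGCACTTT
Eif4h 3' UTR, upstream clusters: TTTGCACTGA
Eif5a2 3' UTR: GGCACTTT
Eef2 coding sequence: GTGCCAACCTC
Eef1b2 3' UTR: tcagtGCACTTaa

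MicroRNAs whose seeds pair with these matches, 1 for each 7mer, are given with the seed in capitals, as in RefSeq (GRCm38.p6). They are shown because several share nearly the same seed letters, so that 1 stretch of mRNA can match more than 1 family.
mmu-miR-294-3p: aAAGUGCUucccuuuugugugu
mmu-miR-290a-3p: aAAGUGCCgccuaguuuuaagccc
mmu-miR-291b-3p: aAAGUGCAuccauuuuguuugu
mmu-miR-17-5p: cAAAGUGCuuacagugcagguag
mmu-miR-19b-3p: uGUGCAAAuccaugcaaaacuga
mmu-miR-148a-3p: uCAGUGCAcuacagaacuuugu
mmu-miR-24-3p: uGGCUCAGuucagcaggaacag
mmu-miR-26a-5p: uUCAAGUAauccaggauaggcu
mmu-miR-16-5p: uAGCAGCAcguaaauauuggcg
mmu-miR-96-5p: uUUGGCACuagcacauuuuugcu
mmu-miR-672-5p: uGAGGUUGguguacuguguguga

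The factor genes were highly expressed, with a median of 71.9 FPKM (highest listed isoform, range 0.236 to 4757) against 4.59 over all genes of the table. All 8 embryonic stem cell markers were listed, at 40.3 to 1655 FPKM. Of the 6 fibroblast markers, which would mark feeder cells, Col1a1, Col1a2 and Col3a1 had no entry among the sites analysed, which start at 0.1 FPKM, and the other 3 reached at most 45.0 FPKM. Of 12 primitive endoderm, neural, mesoderm and trophectoderm markers, 5 were listed, at 0.101 to 3.95 FPKM. Coverage of the predicted sites rested on 789000 reads of the tagged library. For the untagged library, no depth was known here. PCR reads are not independent molecules, so intervals below (exact binomial, 95%) cover counting error only.

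A cluster is a run of overlapping reads that the authors called enriched over the untagged library at p under 0.05. Of the 60 factor genes, 19 (31.7%, interval 20.3 to 45.0) had at least 1 enriched cluster, beside 17.1% of all genes. Among genes at 10 FPKM or more the share was 17 of 52 (32.7%, interval 20.3 to 47.1), beside 29.1% of all such genes. At 100 FPKM or more it was 10 of 27 (37.0%) beside 35.1%, and from 10 to 100 FPKM 7 of 25 (28.0%) beside 28.2%. Compared at like expression, the share of factor genes with an Ago2 cluster was therefore near that of all genes.

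The 19 genes carried 40 clusters, with 416 tagged reads against 6 untagged reads. Untagged numbers are those implied by the deposited enrichment, and their scaling between libraries is not known here. No untagged read was implied in 35 of 40 clusters (87.5%, interval 73.2 to 95.8), beside 85.6% of all clusters. A cluster held 5 to 32 tagged reads (median 8), and 9 clusters rested on 5 reads against 0. Clusters overlapped another of the same gene in 9 cases (in Eif2s2, Eif4b, Eif4g2 and Eif4h), so sums of reads there may count some reads more than once. Reads at single sites, given below, come from the deposited site coverage and not from the cluster counts. A site can therefore show more reads than the cluster over it, and why these counts differ is not known here.

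**Figure D1:**
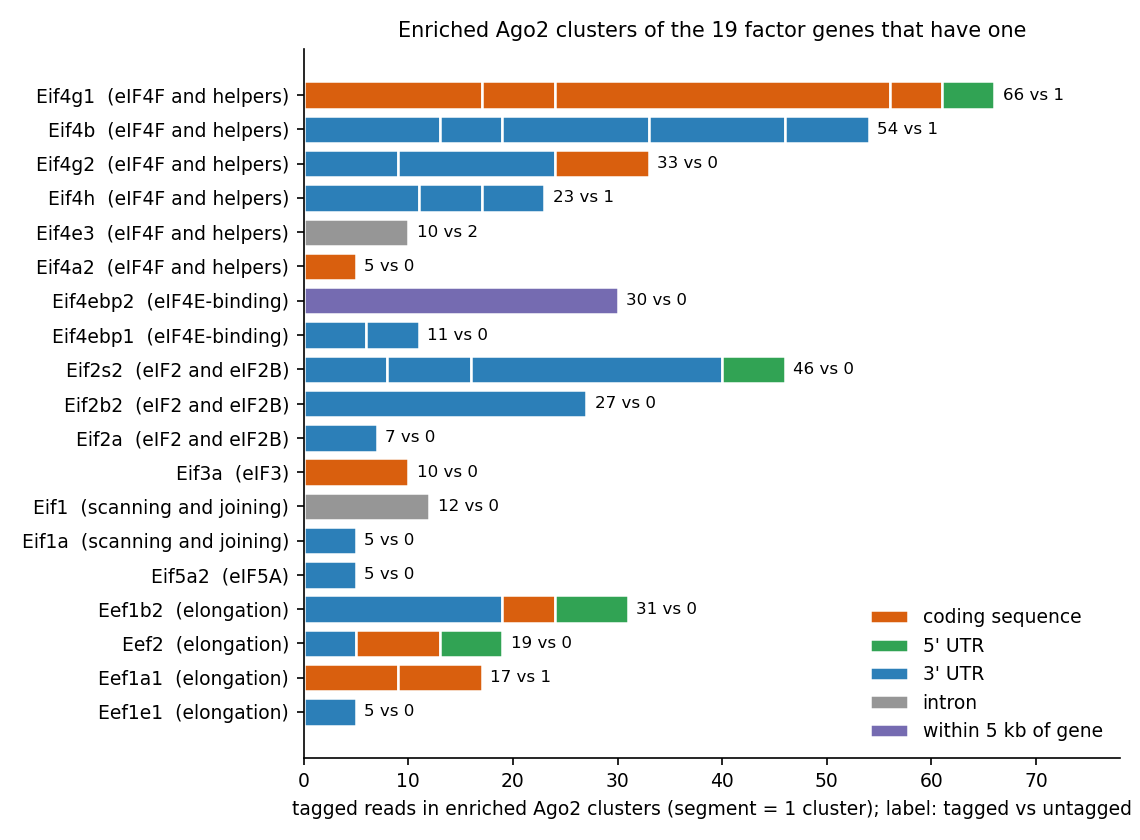
Horizontal bars show, for each of the 19 factor genes with an enriched cluster, the tagged reads in its clusters, 1 segment a cluster, coloured by annotated region. Eif4g1 leads with 66 tagged reads, mostly in coding sequence, followed by Eif4b with 54, all in the 3' UTR, and the untagged numbers written beside the bars stay at 0 to 2.

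The cap-binding complex and its helpers held the most clusters of any role group, 18 in 6 of 11 genes, with 191 tagged reads against 5. Some of these clusters overlap one another, in Eif4b, Eif4g2 and Eif4h. The interval of the share of genes, 23.4 to 83.3%, holds the 29.1% of all genes at 10 FPKM or more. Shares of this and the other role groups take genes of any expression, here also Eif4e3 (0.312 FPKM) and Eif4g3 (3.94 FPKM). Eif4g1, the scaffold of eIF4F, had 5 clusters and none in its 3' UTR. Its strongest, at chr16:20677786-20677865 (mm9) in coding sequence, held 32 tagged reads against 1, the most reads of any cluster in the factor genes. The other 3 coding clusters of Eif4g1 held 17 (across a splice junction), 7 and 5 reads, and its 5' UTR cluster held 5, each against 0. No listed 7mer or 8mer was recorded under them, but no coding-sequence entry of Eif4g1 was among the sites analysed.

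Eif4b, a cofactor that stimulates the eIF4A helicase, had 5 clusters, all in its 3' UTR, with 13, 6, 14, 13 and 8 tagged reads. An untagged read was implied only under the cluster of 8. A listed 7mer, TTGGGAG, touched the cluster of 6 reads, and the other 4 clusters lay over no listed 7mer or 8mer.

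Eif4g2 encodes a relative of eIF4G that lacks the eIF4E-binding region. Its 3' UTR carried overlapping clusters of 9 and 15 tagged reads against 0, and its coding sequence a cluster of 9 against 0. The 15-read cluster, at chr7:118215807-118215871, covered a match to the miR-17 and miR-20 seed (chr7:118215839-118215845) and a match to the miR-26 seed (chr7:118215823-118215829), each with 17 reads. Both matches had a phastCons conservation score of 1. The crosslink peak lay 34 nt and 18 nt downstream of their first bases. It fell directly between the listed 6mers TGCAAT (14 reads) and TTTGAT (15 reads), which also had a phastCons score of 1.

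Eif4h, which also supports eIF4A, had 3 clusters in its 3' UTR with 11, 6 and 6 tagged reads, and 1 untagged read under the first. The stretch GGCACTTT in the 11-read cluster holds a 7mer for miR-17 and its relatives (15 reads) and a 7mer for miR-290a (14 reads). Crosslink peaks fell 7 and 19 nt downstream of the first base of the miR-17 match. Both clusters of 6 covered TTTGCACTGA, in which a 7mer for miR-19 and an 8mer for miR-148 and miR-152 overlap (10 reads each), and a 7mer for miR-22, GGCAGCT (8 reads). Eif4h was thus the factor gene with the most listed 7mers and 8mers under clusters. Of its 29 listed 3' UTR matches, 22 had a read.

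Eif4a2, a form of the eIF4A helicase, had a coding-sequence cluster of 5 reads against 0. Eif4e3, an atypical cap-binding protein, had an intronic cluster of 10 reads against 2 although it was listed at 0.312 FPKM, and no listed site of this gene had a read. Among genes of this group without a cluster, Eif4a1 (710 FPKM) had a read at 5 of 29 listed sites, and Eif4e2 (29.3 FPKM) at 25 of 128 (42 reads in sum). Eif4e, the cap-binding protein itself, had no read at any of its 32 listed sites at 78.3 FPKM, which by a limit of 3 counts allows a supported share of up to 9.38%. Eif4g1, at a similar 65.1 FPKM, had a read at 21 of 41. Control sites had a read in 2 of 46 cases in Eif4e and in 11 of 29 in Eif4g1, so the contrast was not limited to listed matches. Eif4g3 (3.94 FPKM) had a read at 5 of 117 sites, and Eif4a3 had no listed site.

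Of the 4 eIF4E-binding protein genes, 2 had clusters (interval 6.76 to 93.2%, beside 29.1% of all genes at 10 FPKM or more). Eif4ebp2 had a cluster of 30 reads against 0 at chr10:60895117-60895182, and its crosslink peak of 10 events was the highest among the factor genes. The authors' annotation puts this cluster within 5 kb of the gene rather than in its 3' UTR. On the minus strand, it lies downstream of the gene's best supported listed 3' UTR match (chr10:60896380-60896386, CCTCTGC of miR-298, 4 reads). No listed seed match was recorded under the cluster. All 27 listed sites of the gene lie in its 3' UTR (23) or 5' UTR (4), so matches outside both would not have been listed. Of the 27 sites, 14 had a read, as had 9 of the gene's 13 control sites. Eif4ebp1, at 527 FPKM, had 3' UTR clusters of 6 and 5 reads against 0. Eif4ebp3 (2.91 FPKM) and Eif4enif1 (4.07 FPKM) had neither a cluster nor a supported site.

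The 11 genes grouped with eIF2 and with eIF2B, its nucleotide exchange factor, include Eif2a and Eif2d, which encode subunits of neither. Of the 11, 3 had clusters (interval 6.02 to 61.0%, beside 29.1% of all genes at 10 FPKM or more), with 80 tagged reads against 0. In Eif2s2, the beta subunit of eIF2, a cluster of 24 reads at chr2:154697685-154697752 covered the 8mer AGCACTTA (chr2:154697728-154697735), which had 26 reads. This 8mer pairs with the seed shared by miR-291a, miR-294, miR-295, miR-302b and miR-302d. The crosslink peak, 8 events, fell on the first base of the match. The gene had 2 more 3' UTR clusters of 8 reads each and a 5' UTR cluster of 6 reads, all against 0, and 22 of its 43 listed sites had a read.

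In Eif2b2, a subunit of eIF2B, a 3' UTR cluster of 27 reads against 0 (chr12:86567149-86567274) lay over the most covered listed 7mer of the factor genes. This was CTGAGCC, the miR-24 match, with 29 reads (chr12:86567186-86567192) and a crosslink peak 2 nt after its first base. The 8mer TGCTGCTA, for miR-15, miR-16 and relatives, had 13 reads in the same cluster, and the miR-370 match CAGCAGG at its end had 5. PhastCons at these 3 matches was 0.0006, 0.0489 and 0.1909, far from the fully conserved Eif4g2 matches. Eif2a had a 3' UTR cluster of 7 reads against 0 over a 6mer, GCACTG, with the crosslink peak on the base before it. The other 8 genes of the group had no cluster. Eif2b4 had reads at 11 of 39 sites, Eif2s1 at 5 of 33 and Eif2d at 4 of 72, while Eif2b1, Eif2b3, Eif2b5, Eif2s3x and Eif2s3y had 0 to 2 supported sites each.

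The eIF3 complex, the largest initiation factor, had 1 gene with a cluster among 13 (7.69%, interval 0.195 to 36.0), although 11 of the 13 were at 100 FPKM or more. That interval still holds the 35.1% of all genes at that expression, though it also counts Eif3j (5.90 FPKM) and Eif3m (73.3 FPKM). The gene was Eif3a, with a coding-sequence cluster of 10 reads against 0. The eIF3 genes had few listed matches in 3' UTRs, at most 2 in 9 of the 13 genes, and 10 of 116 such sites had a read (8.62%). Eif3j, at 5.90 FPKM, gives most of those sites, and without it the share was 10 of 55 (18.2%). In coding sequence 56 of 201 sites had a read (27.9%). Over all genes at 100 FPKM or more the shares were 28.1% in 3' UTRs and 33.1% in coding sequence, so supported sites of the eIF3 genes lay mostly in coding sequence without a higher share there. Eif3l had reads at 12 of 34 sites (17 reads in sum), Eif3b at 12 of 41 (16 reads) and Eif3d at 11 of 25 (15 reads). Eif3h (267 FPKM) had reads at 5 of 17 sites, and Eif3k (295 FPKM) at the only site it had. Eif3c, Eif3e, Eif3f, Eif3g, Eif3i and Eif3m had 2 to 10 supported sites each. Eif3j, the lowest expressed of the group, had none at 65 sites.

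Among the 8 scanning and subunit-joining genes, Eif1 had an intronic cluster of 12 reads against 0 and Eif1a a 3' UTR cluster of 5 against 0. Eif6, which keeps the ribosomal subunits apart, had no cluster but the best supported listed 7mer or 8mer outside any cluster. This was the coding-sequence 8mer ACTGTGAA of miR-27 at chr2:155648741-155648748, with 8 reads and a phastCons score of 1. Eif6 had a read at 13 of 35 sites (36 reads in sum). Eif5b had a read at 16 of 124 sites (34 reads), 9 of them in its 3' UTR, where a miR-17 family match had 4 reads. Eif1ax (12 of 84 sites), Eif5 (7 of 27), Eif1ad (5 of 25) and Eif1b (2 of 10) had reads without a cluster, so every gene of this group had a supported site.

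Of the pair of eIF5A genes, Eif5a2 carried a 3' UTR cluster of 5 reads against 0 at 5.64 FPKM (chr3:28697493-28697529). It lay over the same GGCACTTT stretch as in Eif4h, here conserved (phastCons 0.9994 for the miR-17 match), with the crosslink peak 9 nt before the miR-17 match. Eif5a, at 44.2 FPKM, had no cluster, and 7 of its 17 sites had a read.

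The 8 genes grouped as elongation factors include Eef2k and Eef1e1, which do not encode elongation factors proper. Of the 8, 4 had clusters (interval 15.7 to 84.3%, beside 29.1% of all genes at 10 FPKM or more). The clusters of these genes numbered 9, with 72 tagged reads against 1. Eef2, the translocase, had the largest number of supported sites of any factor gene, 37 of 48, and 32 of its 40 coding-sequence sites had a read. Its clusters held 6 reads in the 5' UTR, 8 in coding sequence and 5 in the 3' UTR, each against 0. The coding cluster covered GTGCCAACCTC (chr10:80642680-80642690), in which a miR-96 match overlaps a miR-377 and miR-672 match, and the crosslink peak fell inside it.

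Eef1b2, an exchange factor subunit for eEF1A, had a 3' UTR cluster of 19 reads against 0 at chr1:63226174-63226225, and clusters of 7 in the 5' UTR and 5 in coding sequence. Under the 3' UTR cluster, the 6mer GCACTT (19 reads) was the only listed match. It sits in TGCACTTA, a control 8mer that pairs with the seed of miR-291b, a relative of miR-294. Upstream, in the 5' UTR, the miR-19 8mer TTTGCACA had 7 reads outside any cluster.

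Eef1a1, at 4757 FPKM the most expressed factor gene, had coding-sequence clusters of 9 against 1 (across a junction) and 8 against 0, and only 5 of its 27 sites had a read. Eef1e1 had a 3' UTR cluster of 5 against 0. Eef1g (714 FPKM) had no cluster and a read at 1 of 2 sites, Eef1d a read at 6 of 40, and Eef1a2 (0.236 FPKM) and Eef2k (4.33 FPKM) no supported site. The pseudogenes had no cluster. Eif4a-ps4 (404 FPKM) had a read at 6 of 21 sites and Eif5al3-ps (204 FPKM) at 0 of 5. Eef1a1, Eef1b2, Eef1g, Eif4a1, Eif4a2, Eif5a, Eif1, Eif1a and some others have near-identical copies in the genome, so the reads of these genes and of the pseudogenes could be split or moved between copies.

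**Figure D2:**
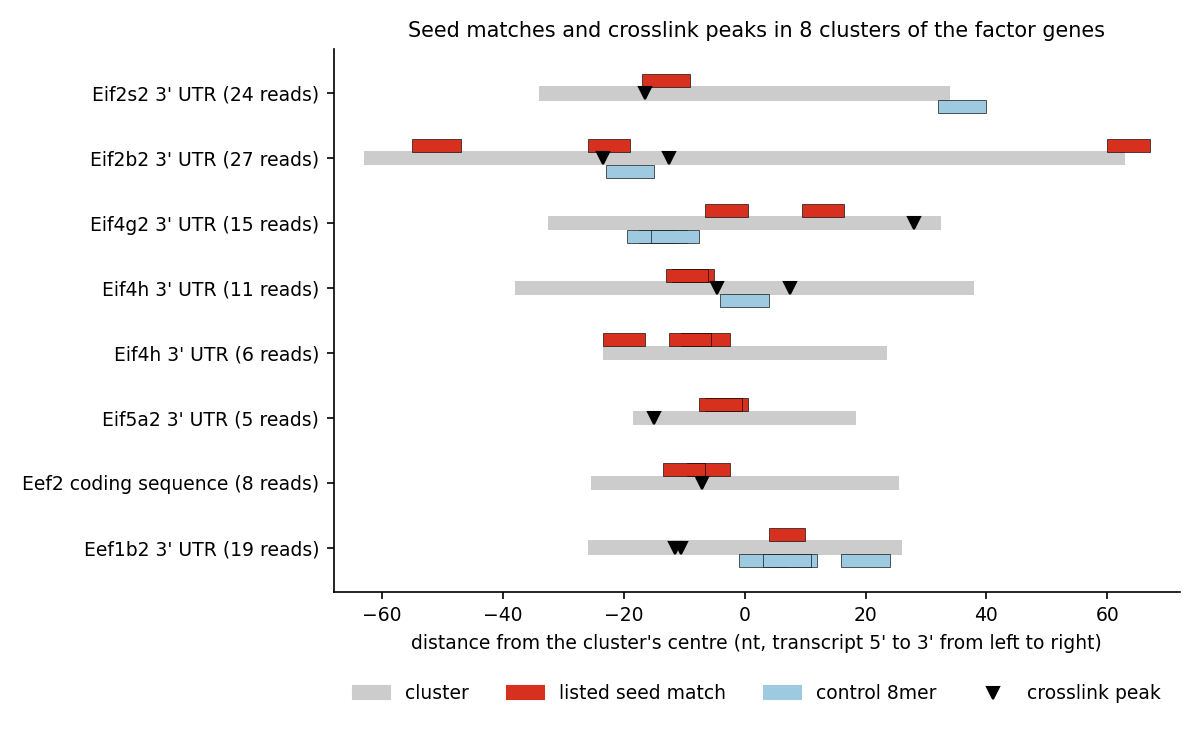
Grey bars are 8 clusters of the factor genes, drawn as distance in nt from the cluster's centre along the transcript, with listed seed matches in red (7mers and 8mers, and the 6mer of Eef1b2), control 8mers in blue and crosslink peaks as triangles. In Eif2s2, Eif2b2 and Eef2 a crosslink peak lies on a listed match. In Eif4g2 it lies 18 nt or more downstream of the start of both matches drawn, between listed 6mers that are not drawn. The Eif4h cluster of 6 reads has no peak listed.

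By region, 22 of the 40 clusters were in 3' UTRs (55.0%, interval 38.5 to 70.7), beside 61.3% of all clusters. Coding sequence held 11 (27.5%, interval 14.6 to 43.9, beside 16.0%) and 5' UTRs 4 of 40 (interval 2.79 to 23.7%, beside 1.59%). The 5' UTR clusters lay in 4 different genes, Eef1b2, Eef2, Eif2s2 and Eif4g1, and held 5 to 7 reads each. Expression moved with these shares. Over clusters of genes at 100 FPKM or more, 5' UTRs held 3 of 23 in the factor genes (13.0%, interval 2.78 to 33.6) beside 6.44% of all, and 3' UTRs 52.2% beside 51.4%. Coding sequence there held 7 of 23 (30.4%, interval 13.2 to 52.9) beside 39.5%, the opposite direction to the shares without a minimum.

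A listed 7mer or 8mer lay under 10 of the 38 clusters that do not span a junction (26.3%, interval 13.4 to 43.1), beside 34.2% of all clusters. For clusters in 3' UTRs it was 9 of 22 (40.9%, interval 20.7 to 63.6) beside 46.3%. The listing limits the count, since 27 of the 60 genes have no coding-sequence entry among the sites analysed, and 6 of the 11 coding clusters lie in 3 of these genes (Eef1b2, Eif4g1 and Eif4g2). Of 13 distinct listed 7mers and 8mers under a cluster with a recorded crosslink peak, 8 had the peak within 10 nt of their first base, on either side. The nearest peak was taken where a cluster had several, and clusters of the factor genes had a median width of 45.5 nt. The same count was not made over all clusters, so this one does not show whether peaks gather at matches. It includes matches that overlap one another, as in Eef2, Eif4h and Eif5a2.

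At the level of single sites, 410 of the 2092 distinct listed sites of the factor genes had at least 1 read (19.6%, interval 17.9 to 21.4), beside 10.7% over all genes. At 10 FPKM or more the shares were 23.1% and 20.7%. Listed 7mers and 8mers in 3' UTRs had a read in 26.3% of 243 cases at 10 FPKM or more (interval 20.9 to 32.3), beside 28.5% over all such genes. With no minimum it was 70 of 321 cases (21.8%, interval 17.4 to 26.7), beside 16004 of 79841 over all genes. At least 1 supported listed site was present in 48 of the 60 genes (interval 67.7 to 89.2%), beside 63.0% of all genes with such sites. Neither share has an expression minimum, and the share at like expression was not computed, so the difference cannot be told from that in expression. Of the 41 genes without a cluster, 30 had a supported site, a count not made over all genes. Sites of a gene share its reads and can overlap, so the intervals are too narrow.

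Support differed by region of the transcript. At 10 FPKM or more, coding-sequence sites had a read in 157 of 597 cases (26.3%, interval 22.8 to 30.0) beside 18.5% over all genes, and 5' UTR sites in 41 of 155 (26.5%, interval 19.7 to 34.1) beside 16.3%. For 3' UTR sites it was 190 of 919 (20.7%, interval 18.1 to 23.4) beside 23.8%. Eef2 alone gave 32 of the supported coding sites, and without it the coding share was 22.4% (interval 19.0 to 26.1). Without Eif2s2 the 5' UTR share was 24.1% (interval 17.3 to 32.0). Expression again moved with the result. At 100 FPKM or more the coding shares were 30.5% in factor genes and 33.1% over all genes, the 5' UTR shares 35.1% (interval 22.9 to 48.9) and 27.3%, and the 3' UTR shares 26.8% and 28.1%. The coding interval ran from 25.8 to 35.6 and the 3' UTR interval from 21.9 to 32.1, so at that level each of the 3 intervals held the value of all genes.

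Control 8mers of the same transcripts, which share the expression of the listed sites, had a read in 298 of 2182 cases (13.7%). The ratio of listed to control support was 1.44 in the factor genes and 1.48 over all genes. It was 1.95 in coding sequence (1.36 over all genes), 1.55 in 5' UTRs (1.46) and 1.13 in 3' UTRs (1.44). In 3' UTRs of the factor genes 16.8% of listed sites (interval 14.7 to 19.0) and 14.9% of control 8mers (interval 12.9 to 17.1) had a read, and these intervals overlap. These listed sites are mostly 6mers (876, with a read in 15.0%), while every control is an 8mer. The 321 listed 7mers and 8mers there had a read in 21.8% of cases (interval 17.4 to 26.7). Over all regions, the ratio for listed 7mers and 8mers alone was 1.71, beside 1.78 over all genes. The order of the 3' UTR ratios turned with expression. It was 1.16 in factor genes and 1.35 over all genes at 10 FPKM or more, and 1.38 and 1.18 at 100 FPKM or more. In coding sequence the factor genes had the higher ratio at both minimums, 1.91 beside 1.36 and 1.65 beside 1.27. At 100 FPKM or more, however, their listed coding share was the lower, 30.5% beside 33.1%. The higher ratio there goes with a lower control share, 18.5% beside 26.1%. In 3' UTRs at that level the control share was also lower, 19.5% beside 23.7%. The coding ratio was not computed without Eef2.

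**Figure D3:**
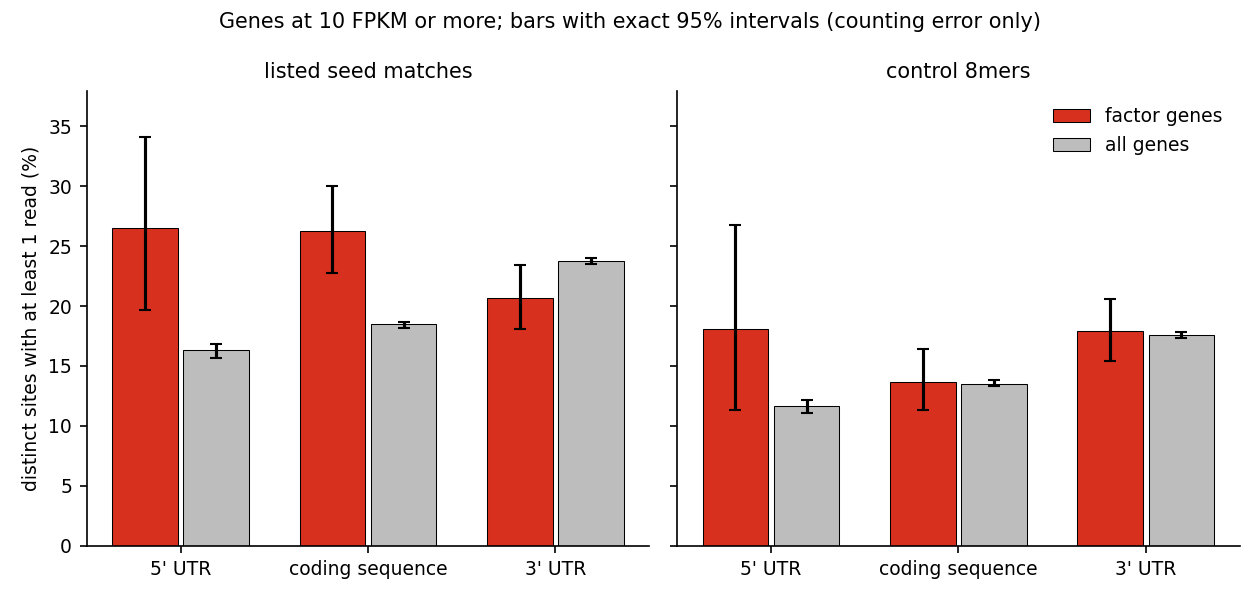
Bars give the percent of distinct sites with at least 1 read in genes at 10 FPKM or more, by region, for listed seed matches (left) and control 8mers (right), with factor genes in red, all genes in grey and exact 95% intervals. For listed matches the factor genes stand above all genes in 5' UTRs (26.5% beside 16.3%) and coding sequence (26.3% beside 18.5%) and below them in 3' UTRs (20.7% beside 23.8%), while the control 8mers are near equal in coding sequence (13.7% beside 13.5%) and in 3' UTRs (17.9% beside 17.6%) and in 5' UTRs stand at 18.1% beside 11.7%.

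Across the 59 factor genes with a listed site, expression and the share of sites with a read went together (Spearman's rho 0.50, Pearson's r 0.46 on log2 FPKM), as a description of 1 library in which all points share depth. Genes of like expression could still differ, as Eif4e (0 of 32 sites at 78.3 FPKM) and Eif4g1 (51.2% at 65.1 FPKM) show. Their control sites differed in the same direction, with a read at 2 of 46 in Eif4e and 11 of 29 in Eif4g1. Counts for single genes, here and above, thus do not separate seed matches from coverage of the transcript. Control shares were above listed ones in Eif4ebp2 (9 of 13 beside 14 of 27) and Eif1a (17 of 32 beside 12 of 36). They were below in Eef2 (21 of 40 beside 37 of 48) and Eif4h (11 of 32 beside 22 of 38). Genes with a known 5' terminal oligopyrimidine motif, through which mTOR controls the translation of many of these mRNAs, made up 9 of the 60 (Eef1a1, Eef1b2, Eef1d, Eef1g, Eef2, Eif3e, Eif3f, Eif3h and Eif4b). They had a read at 72 of 241 sites (29.9%), and the other 51 genes at 18.3% of theirs. Eef2 gave 37 of those 72 sites, and without it the share was 35 of 193 (18.1%), near that of the other genes. A cluster was present in 4 of the 9 and in 15 of the other 51. All of the 9 but Eif4b (56.0 FPKM) were at 100 FPKM or more, where 35.1% of all genes had a cluster. From 10 to 100 FPKM it was 28.2% of all genes.

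**Figure D4:**
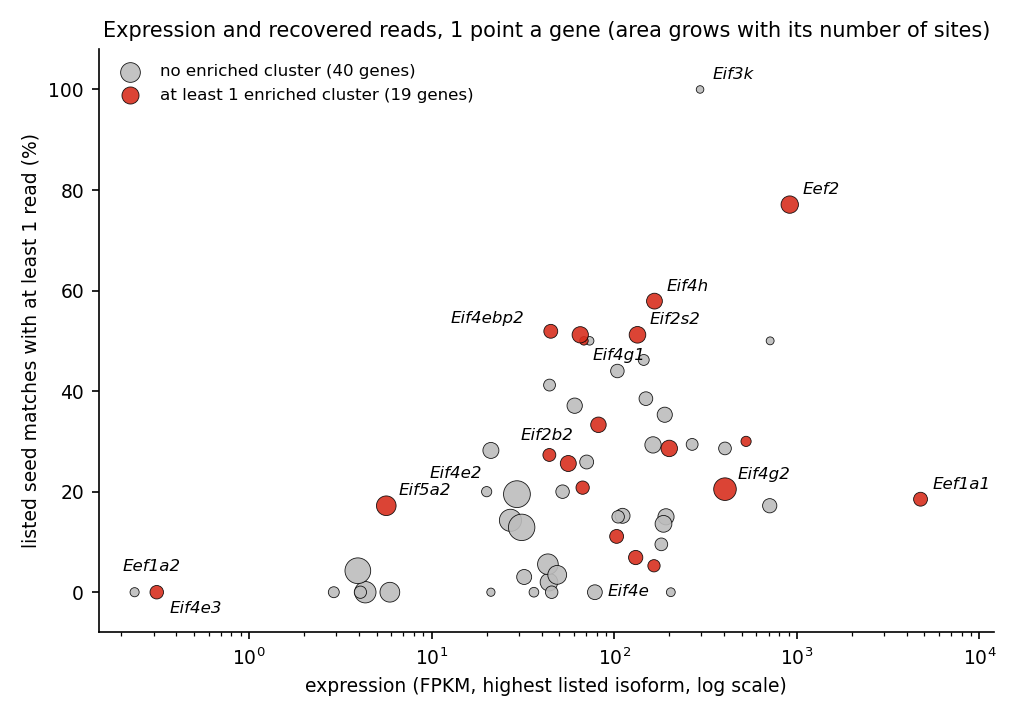
Each point is 1 of the 59 factor genes with a listed site, placed by expression (FPKM, log scale) and by the percent of its listed sites with at least 1 read, with genes that have an enriched cluster in red. Eef2 stands highest among genes with more than a few sites, Eif4h, Eif4ebp2, Eif4g1 and Eif2s2 lie above 50%, and Eef1a1 lies at 18.5% despite the highest expression.

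By seed family, the most supported sites in the factor genes belonged to miR-15 and miR-16 (TGCTGCT, 32 of 87 sites in 21 genes). Next were miR-103 and miR-107 (ATGCTGC, 18 of 62), miR-298 (CCTCTGC, 18 of 71), miR-183 (GTGCCAT, 17 of 55), and with 16 each miR-27 (ACTGTGA, of 53) and miR-17 (GCACTTT, of 45). In the order named, these are shares of 36.8%, 29.0%, 25.4%, 30.9%, 30.2% and 35.6%. Over all genes the shares were 15.8%, 14.5%, 11.8%, 9.81%, 10.6% and 18.2%, without an expression minimum. The highest share among families with at least 20 sites was that of the embryonic stem cell family of miR-294 and miR-290a (AGCACTT and GGCACTT), 14 of 29 (48.3%, interval 29.4 to 67.5) beside 34.4% over all genes. At 10 FPKM or more this share was 55.0%, beside 56.0% over all genes. The family of miR-1970c (CCCGGCT) followed with 10 of 24 (41.7%, beside 12.9% over all genes) and that of miR-15 and miR-16 with 36.8%. The family of miR-379 and miR-1193 (GTCTACC) had 9 of 25 (36.0%, beside 10.1% over all genes) and that of miR-17 35.6%. At 10 FPKM or more it was 40.9% beside 21.0% for miR-379 and 38.9% beside 33.2% for miR-17. Both intervals held the value of all genes. Among 7mers and 8mers in 3' UTRs alone, 10 of 24 sites of miR-15 and miR-16 had a read. There it was 7 of 14 for miR-294 and miR-290a, 6 of 7 for miR-17 and 2 of 7 for miR-183. For CCCGGCT and for GTCTACC it was 0 of 1 each. Over all genes these 3' UTR shares, in the order named, were 29.7%, 46.9%, 57.0%, 16.0%, 18.9% and 17.0%. Of 39 families with at least 20 sites in factor genes at 10 FPKM or more, the interval held the value of all genes in 35, lay above it in 3 and below it in 1. Those above were miR-15 and miR-16, miR-183, and miR-376b (TCTATGA, 12 of 37, 32.4% beside 16.9%). The family below was miR-381 (CTTGTAT, 2 of 45, 4.44%, interval 0.543 to 15.1, beside 21.7%). No adjustment was made for the number of families.

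**Figure D5:**
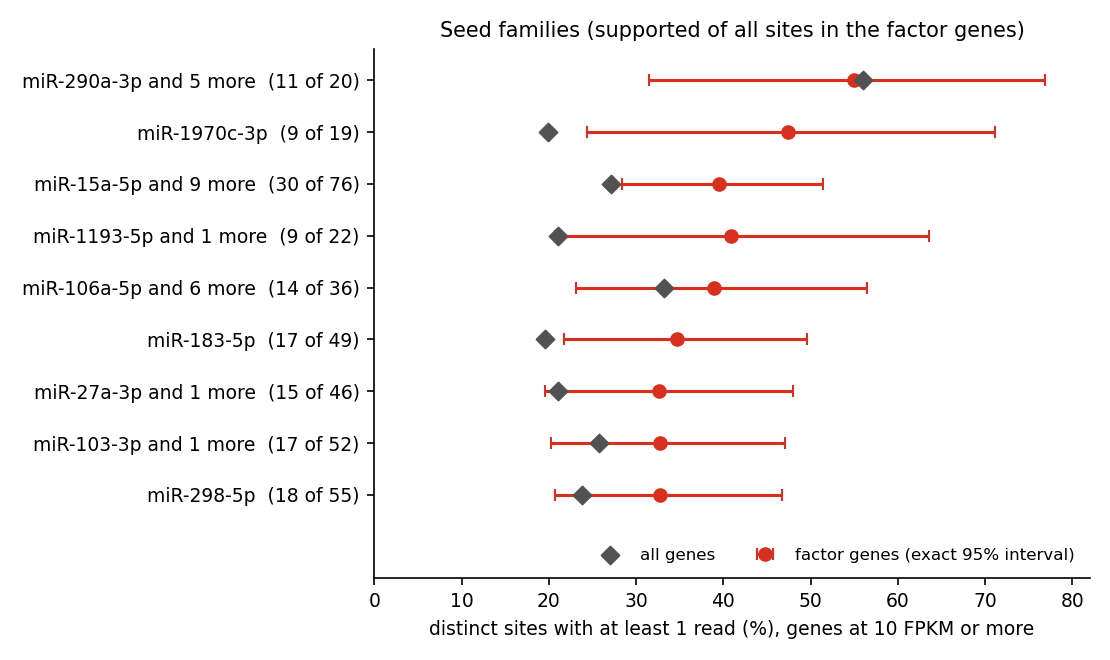
Red points give, for the named seed families, the percent of sites in factor genes at 10 FPKM or more that had a read, with exact 95% intervals, and grey diamonds the same over all genes. The families are named by 1 microRNA of the seed and the number of others, and those of miR-15 (39.5% beside 27.1%), miR-183 (34.7% beside 19.6%) and miR-1970c (47.4% beside 19.9%, from only 19 sites) have intervals above the value of all genes.

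Genes that act on the factors were described from 6 lists of 60 symbols, 59 of them in the table. Of these, 19 (32.2%) had a cluster, beside 17.1% of all genes and 29.1% of those at 10 FPKM or more. Of 15 genes of mTOR and MNK signalling 7 had one (Rptor, Rictor, Tsc1, Tsc2, Mknk2, Deptor and Ddit4), with Rictor, a subunit of mTOR complex 2, holding 113 tagged reads against 3 in 6 clusters. Initiation helicases had clusters in 3 of 4 genes (Ddx3x, Dhx9 and Ddx6) and aminoacyl-tRNA synthetases in 7 of 19, where Aars held 43 reads against 2. None of the 6 genes for eIF2 kinases and regulators of its phosphatase had one. Atf4, kept in the same list as the transcription factor whose translation eIF2 phosphorylation raises, had 31 reads against 1. Termination and recycling factors had 1 of 7 (Abce1), and poly(A)-binding proteins and their partners 0 of 7 at 20.9 to 879 FPKM. At these list sizes the intervals are wide: 21.3 to 73.4% for mTOR and MNK signalling and 0 to 41.0% for the poly(A)-binding proteins.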

How the data were processed

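The tagged library's enriched clusters and predicted sites were used, and the untagged library enters only through the authors' enrichment values. The submitters' processing notes name Bowtie, TopHat, mm9 and NCBIM37 without versions or roles, and no source used here names the cluster caller. The height of each peak is a signal counted in reads, per the file headers. The cluster score field deposited by the authors is other text that joins tagged reads, log2 enrichment and a binomial p-value. The untagged number was solved from the deposited log2 value. Site coverage was deposited in rpm, and every value was a whole multiple of 1.27 rpm within 0.001 reads, so whole reads were recovered. Expression is in FPKM as deposited by the authors, and the highest listed isoform was taken. PhastCons is a conservation score, per the file headers.

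Entries at the same position and strand with the same letters were counted as 1 site, supported with at least 1 read. Overlap required 1 nt on the same strand, without junction clusters. Cluster names were matched to symbols in any letter case. Of 66 symbols that fitted the pattern, 6 were left out. Coordinates are 1-based on mm9, and crosslink positions were counted from the lower coordinate. Named are all genes with a cluster, and of the others the 6 of highest expression, the 6 with most reads at listed sites, and others by role group. Members and lists were chosen with earlier results of these data known. MicroRNA names come from RefSeq seeds, with a match for 44 of 50 listed 7mers. Counting was tested on simulated data. Python 3.11.15, pandas 2.3.3 and scipy 1.17.1 were used.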

Additional observations from a re-analysis of the deposited data

How the results depend on the processing

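Of 54 recomputed values, 40 stayed within the interval of the value reported or within 1.5 times the count. The number of factor genes with a cluster, 19, was 11 when at least 10 tagged reads were required (interval 9.52 to 30.4%, beside 7.10% of all genes). It was 0 with symbols matched in exact letter case, because the cluster names are written in capitals. At the authors' p under 0.01 it was 13 (interval 12.1 to 34.2%, beside 10.5% of all genes). Shares at like expression were not computed for these settings. The share of clusters over a listed 7mer or 8mer, 26.3%, became 47.4% with 6mers also counted and 55.3% with control 8mers also counted, a setting chosen after seeing the data. The share of listed sites with a read, 19.6%, was 9.32% at 2 reads or more, 23.1% at 10 FPKM or more, 21.4% without genes that have near-identical copies, 16.8% in 3' UTRs alone and 23.4% for 7mers and 8mers alone. The share of 3' UTR 7mers and 8mers with a read, 21.8%, was 12.1% at 2 reads or more. The ratio of listed to control support, 1.44, was 1.97 at 2 reads or more, 1.60 without genes that have near-identical copies, 1.13 in 3' UTRs alone and 1.71 for 7mers and 8mers alone. Those settings change which sites are counted. Leaving out Eif4g1, Eif4b, Eif4h or Eef2 moved none of these overall values beyond its interval, where tried, but the coding-sequence share at 10 FPKM or more fell from 26.3% to 22.4% without Eef2, below its interval. No paired analysis was possible because each group has 1 library. With 1 library a group, binding that varies between cultures or clones cannot be told from these values, and clusters of 5 reads carry little precision.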

Other observations

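Under the clusters of the factor genes some of the best covered letters belonged to control 8mers. In Eif2b2 the 8mer AGCCCTCA, which overlaps the miR-24 match, had 30 reads, and in Eif4g2 the matches of miR-139 (ACTGTAGA) and miR-144 (ATACTGTA) had 15 reads each beside the miR-17 match. In Eif2s2 the 8mer TCCTCTGA had 14 reads where 3 clusters meet, with a phastCons score of 0.987, while the miR-294 match that carries the crosslink peak had a score of 0.0018.

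Listed 3' UTR sites of the factor genes with a read had a median phastCons score of 0.228 (201 sites) and those without a read 0.0430 (996 sites). Over all genes the medians were 0.155 and 0.0277. In coding sequence the medians were 0.998 with a read and 0.999 without. The deposited log2 coverage, which the authors scaled by expression, had a median of -2.12 at supported listed sites of the factor genes and -1.62 over all genes. At equal reads this value is lower in genes of higher expression. Sites with 4 reads had -2.27 in Eef1a1 (4718 FPKM) and -0.11 in Eif4e2 (9.13 FPKM). The factor genes were the more expressed, and medians at like expression were not computed, so weaker binding cannot be read from them.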
